A study of Homo sapiens with 18 samples.

Results

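Binding of the glucocorticoid receptor (GR) to chromatin was examined around 42 human genes that encode nuclear receptors, among them NR3C1, the gene of GR itself. The genes were chosen by name, and they are 42 of the 20033 protein-coding genes that have a canonical transcription start site (TSS) in GENCODE release 44. A GR binding region (GBR) is a peak of GR ChIP-seq signal, and it was counted for a gene when its summit, the base at which the signal is highest, lay within 50 kb of the canonical TSS. The peak list from cells depleted of Hic-5 held 30 such GBR of 9533. When the 6 lists of the study were merged, 30 of 9736 regions lay near a nuclear receptor gene, and all 30 contained a GBR of that list.

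The cells were U2OS-GRα, an established human osteosarcoma line into which GRα had been stably introduced, and the antibodies cannot tell the introduced GRα from any GR made by the cells' own NR3C1. Cells were transfected for 48 h with nonspecific siRNA (siNS/siNS), or with siRNA against the coregulator Hic-5 (siHic5/siNS), the chromatin remodeler CHD9 (siCHD9/siNS), the chromatin remodeler BRM (siBRM/siNS), Hic-5 and CHD9 together (siCHD9/siHic5) or Hic-5 and BRM together (siBRM/siHic5). Every group then received 100 nM dexamethasone (dex), a synthetic glucocorticoid that activates GR, for 1 h, so none of the lists comes from untreated cells. The 12 ChIP libraries, 2 replicates for each combination, were pooled by the authors into 1 list per combination, and 6 input libraries were also sequenced.

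Because each list pools its replicates, no spread between replicates can be given and no test was made. A GBR is either called or not called in a list, and a missing call can still hide GR bound below the threshold of that list. The lists did not share a threshold. The lowest −log10 q-value of a list was between 7.26 and 8.91 in 5 of them and 14.2 for siBRM/siHic5. Heights were therefore not compared between lists. The −log10 p-value of a GBR and its rank by that value, with rank 1 the strongest, describe its place within 1 list. The depth of the libraries and the degree of depletion cannot be read from the lists, and their part in the number of calls was not tested. Nor can the lists show which of the nuclear receptors were expressed in these cells.

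Nuclear receptors are transcription factors that share a DNA-binding domain and, in most members, a ligand-binding domain. Many are switched by small fat-soluble ligands such as steroid hormones, thyroid hormone, retinoic acid, vitamin D, bile acids or fatty acids, and several of them act as partners of the retinoid X receptors. GR binds as a homodimer to an inverted repeat known as the glucocorticoid response element (GRE), and it can also be brought to DNA by other factors. Feedback of GR on its own gene and on the genes of other receptors is a long-studied theme of hormone action.

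The strongest GBR and those that hold a near-consensus GRE are shown by their sequence, since the GRE is the element that GR binds. A match was scored against the pattern AGNACANNNTGTNCT, which has 10 defined positions, on both strands. All sequences are from the plus strand of GRCh38, capitals mark the 15 bases of the match, and positions of GBR are distances of the summit from the TSS, negative when upstream. A match describes letters and not a proven site. The 5 GBR with a match of at most 1 mismatch within the 1 kb centred on the summit were near ESR2, VDR, RARB, THRB and NR2E3, and the match nearest to the summit was as follows.
ESR2, chr14:64296716-64296770: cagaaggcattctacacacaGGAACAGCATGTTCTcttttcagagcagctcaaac
VDR, chr12:47878445-47878499: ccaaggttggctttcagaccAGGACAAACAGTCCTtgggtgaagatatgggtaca
RARB, chr3:25459960-25460014: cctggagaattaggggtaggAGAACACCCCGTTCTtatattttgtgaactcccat
THRB, chr3:24507971-24508025: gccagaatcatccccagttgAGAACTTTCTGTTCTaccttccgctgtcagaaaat
NR2E3, chr15:71780422-71780450: taggcaaAGGACATTTAGTACTatcgatt

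The match lay 0 bp from the summit at VDR, 3 bp at NR2E3, 6 bp at RARB and −6 bp at ESR2. At THRB it lay 380 bp from the summit. None of the 30 GBR held the pattern without a mismatch, against 3.58% of all siHic5/siNS GBR.

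Of the 9 strongest GBR, 4 others held a match with 2 mismatches within the 200 bp centred on the summit. These were the GBR of THRA at 12.3 kb and −41.3 kb, of RXRA at −5.25 kb and of RARA at 32.7 kb.
THRA, chr17:40075252-40075306: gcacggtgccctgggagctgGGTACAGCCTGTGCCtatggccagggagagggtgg
THRA, chr17:40021597-40021651: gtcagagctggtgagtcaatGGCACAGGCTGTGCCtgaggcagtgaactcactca
RXRA, chr9:134321163-134321217: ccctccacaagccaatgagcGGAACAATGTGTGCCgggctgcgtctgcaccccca
RARA, chr17:40341891-40341945: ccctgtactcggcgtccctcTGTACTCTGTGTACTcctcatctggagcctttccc

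These matches centred within −13 to 7 bp of the summit. The remaining 3 of the 9, at −44.9 kb of PPARA, −47.3 kb of THRA and −14.3 kb of NR4A1, held no match of up to 2 mismatches in that window.

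More nuclear receptor genes had a GBR after depletion of Hic-5 than in any other combination. In cells containing all of the proteins (siNS/siNS), 5 of the 42 genes (11.9%, 95% Wilson interval 5.19 to 25%) had a GBR within 50 kb, which compares with 9.46% of all protein-coding genes. In cells depleted of Hic-5 there were 16 (38.1%, 25 to 53.2%), against 27.1% of all genes. Counting error alone, which is all that these intervals cover, is large enough to span the background value in both lists. The 16 genes were also all the nuclear receptor genes with a GBR in any list, for which the background was 27.6%.

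Depletion of a remodeler together with Hic-5 left fewer of these genes with a call. In siBRM/siHic5, 9 genes (21.4%, 11.7 to 35.9%) had a GBR, against 12.4% of all genes. In siCHD9/siHic5 there were 4 (9.52%, 3.77 to 22.1%), against 8.99% of all genes. With Hic-5 present, 2 genes (4.76%) had a GBR in siCHD9/siNS and 4 genes (9.52%) in siBRM/siNS, against 5.75% and 5.23% of all genes. Every interval included its background.

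By GBR instead of by gene, 5 of 2582 GBR in siNS/siNS, 30 of 9533 in siHic5/siNS, 6 of 2451 in siCHD9/siHic5, 13 of 3383 in siBRM/siHic5, 2 of 1415 in siCHD9/siNS and 4 of 1278 in siBRM/siNS lay near a nuclear receptor gene. No GBR near these genes was called in another list while absent from siHic5/siNS. Over all merged regions, 97.8% were called in siHic5/siNS, so this count of 30 of 30 is close to the background.

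**Figure D1:**
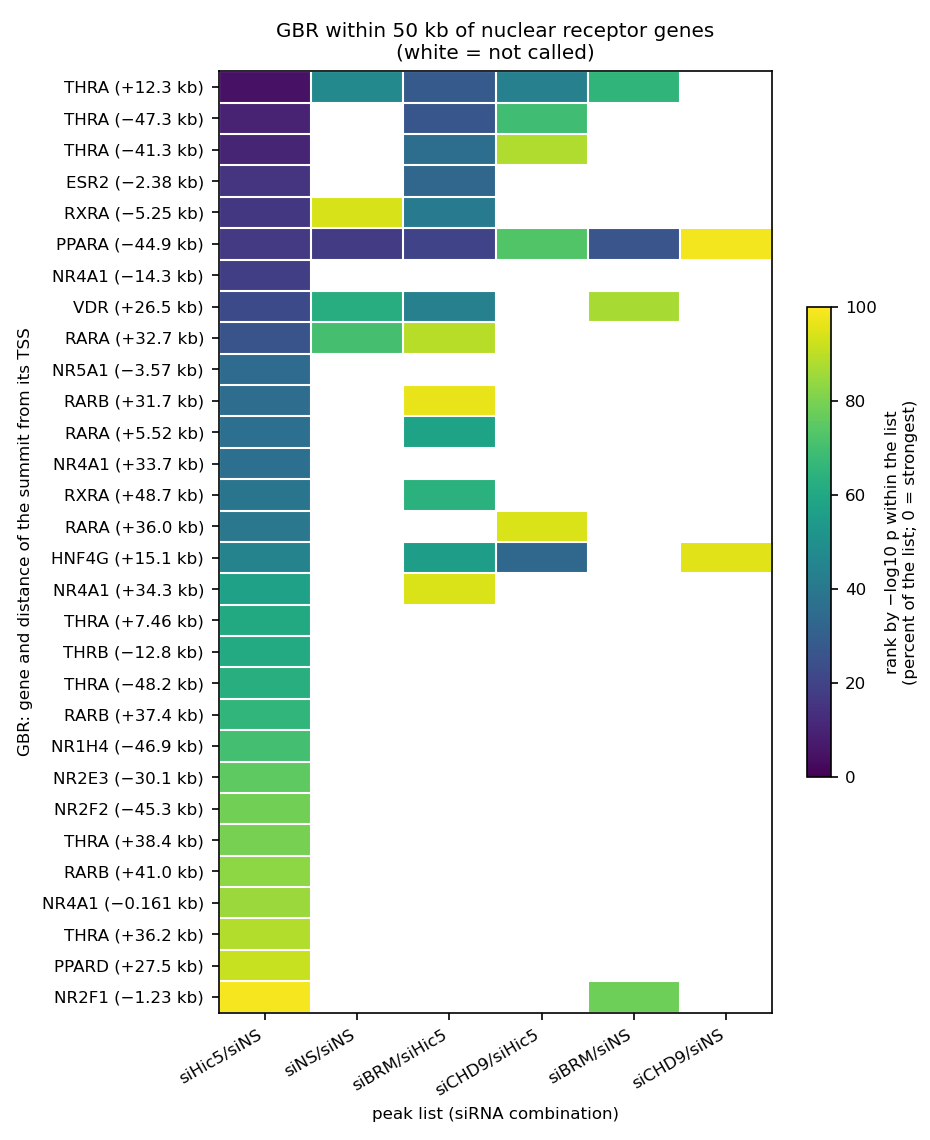
Each row is 1 of the 30 GBR near a nuclear receptor gene, named by the gene and the distance of its summit from the TSS, and each column is a peak list. Color gives the rank by −log10 p-value as a percent of the list (0 is the strongest), white means not called. The siHic5/siNS column is filled throughout, siNS/siNS has 5 filled cells, and only the PPARA row is filled in all 6 columns.

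The plot of calls by list orders the GBR by their strength in siHic5/siNS. Filled cells in the other columns gather in its upper rows. Of the 30 GBR, 15 (50%) were called in siHic5/siNS and in no other list, against 57.5% of all merged regions. A further 5 (16.7%) were called in siHic5/siNS and siBRM/siHic5 only, against 7.72% of all merged regions. A GBR called in all 6 lists was found at PPARA alone (3.33%), against 9.05% of all merged regions.

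The genes were then taken by their roles, beginning with the receptors of steroid hormones. NR3C1, PGR and ESR1, which encode the receptors of glucocorticoids, progesterone and estrogen, had no GBR within 50 kb in any list. The same was true of NR3C2, which encodes the mineralocorticoid receptor. ESR2, which encodes estrogen receptor β, was the only one of these 5 genes with a GBR. The background was 27.6% of all protein-coding genes with a GBR in any list, so most genes had none.

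NR3C1 lies on the minus strand of chromosome 5, spans 158 kb (chr5:143277931-143435512) and has its canonical TSS at position 143403686. No list called a GBR within 50 kb of that TSS, and no list called one anywhere inside the gene. The nearest GBR in siHic5/siNS was at chr5:143261790-143262218, 142 kb downstream of the canonical TSS and 15.9 kb beyond the end of the gene. It was 128 kb from the closest of the 16 annotated transcript starts of NR3C1. Its −log10 p-value was 12.9, which placed it at rank 8729 of 9533, and it was called in no other list.

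In the other 5 lists the nearest GBR to NR3C1 was 1047 kb away, in an intron of SPRY4-AS1. This distant GBR was called in all 6 lists and stood at rank 301 in siNS/siNS (chr5:142356590-142357519, −log10 p-value 54.5). The 100 kb around the NR3C1 TSS were not without GRE-like letters. They held 7 matches with at most 1 mismatch, the nearest 6.06 kb from the TSS. No siHic5/siNS GBR lay in that window, so none of the matches could lie inside one. Over all protein-coding genes the median was 4.0 matches in a window of this size (quartiles 2.0 and 5.0). The 16 receptor genes with a GBR had a median of 4.0 matches (range 1 to 9), and the 26 without a GBR also had 4.0 (range 1 to 10).

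The ESR2 GBR (chr14:64296546-64296975) had its summit at −2.38 kb, in an intron of ESR2 transcripts that start further upstream. It was called in siHic5/siNS with a −log10 p-value of 53.3 (rank 1481 of 9533) and in siBRM/siHic5 with 45.1 (rank 1119 of 3383). It was absent from siNS/siNS, siCHD9/siHic5, siCHD9/siNS and siBRM/siNS. A siHic5/siNS GBR with no overlapping siNS/siNS GBR is called blocked here, and one that overlaps a siNS/siNS GBR is called shared. The study also defined blocked GBR by a test of signal between conditions, and those sets, which can differ from the overlap of the lists, were not used here. By overlap the ESR2 GBR was blocked, and its call was lost when CHD9 was depleted together with Hic-5 but not when BRM was.

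ESRRA, ESRRB and ESRRG, the orphan receptors related to the estrogen receptors, had no GBR within 50 kb in any list. A GBR in any list was found for 27.6% of all protein-coding genes.

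The receptors of thyroid hormone, retinoic acid and vitamin D held 15 of the 30 GBR. Of these 6 genes, 5 had a GBR in siHic5/siNS and only RARG, which encodes retinoic acid receptor γ, had none, where 27.1% of all protein-coding genes had one. Of the 15 GBR, 7 were counted for THRA, and for 5 of those 7 the nearest TSS was that of CSF3 or NR1D1. The 15 GBR compare with 3 in siNS/siNS, 4 in siCHD9/siHic5, 7 in siBRM/siHic5, 0 in siCHD9/siNS and 2 in siBRM/siNS.

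THRA, which encodes thyroid hormone receptor α, had 7 GBR in siHic5/siNS, the most of the 42 genes. Over all protein-coding genes, 26 of 20033 (0.130%) had 7 or more. The strongest was in an intron of THRA at 12.3 kb (chr17:40074948-40075935). It had a −log10 p-value of 99.3 in siHic5/siNS (rank 482), 22.1 in siNS/siNS (rank 1216), 23.2 in siCHD9/siHic5 (rank 1069), 51.0 in siBRM/siHic5 (rank 962) and 15.2 in siBRM/siNS (rank 838), and it was absent from siCHD9/siNS. This was the only THRA GBR that was called in cells containing Hic-5.

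A group of 3 THRA GBR lay at the other side of the window, nearest to other genes. The GBR at −47.3 kb (chr17:40015389-40015942, rank 908) had its summit in the untranslated region of CSF3, 0.216 kb from the TSS of that gene, which encodes the granulocyte colony-stimulating factor. The GBR at −41.3 kb (chr17:40021349-40022050, rank 985) lay in an intron of MED24, a Mediator subunit gene. Both were blocked GBR of high −log10 p-value, 71.5 and 68.7, and both were still called when a remodeler was depleted with Hic-5, with 15.7 and 12.8 in siCHD9/siHic5 and 53.2 and 42.4 in siBRM/siHic5. They stood at ranks 1695 and 2161 of 2451 in siCHD9/siHic5 and at ranks 906 and 1227 of 3383 in siBRM/siHic5.

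The other 4 THRA GBR were weak and were called in siHic5/siNS only. They lay at −48.2, 7.46, 36.2 and 38.4 kb, with −log10 p-values between 13.5 and 18.8. The last 2 of these were within 1.45 kb and 0.762 kb of the TSS of NR1D1, a nuclear receptor gene of the circadian clock that overlaps the end of THRA on the opposite strand, so they cannot be assigned to one gene by position.

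RARA, which encodes retinoic acid receptor α, had 3 GBR, all in introns of the gene. The strongest, at 32.7 kb (chr17:40341335-40342267), had a −log10 p-value of 36.9 in siHic5/siNS (rank 2482), 16.5 in siNS/siNS (rank 1820) and 19.9 in siBRM/siHic5 (rank 3018), and it was absent from the other 3 lists. The GBR at 5.52 kb was blocked, with 28.3 in siHic5/siNS and 29.2 in siBRM/siHic5 (rank 1961). The GBR at 36.0 kb was also blocked, with 27.1 in siHic5/siNS and 12.0 in siCHD9/siHic5 (rank 2311 of 2451). The 3 RARA GBR therefore had 3 different patterns of calls within 1 gene. The nearest TSS to those at 32.7 and 36.0 kb was that of GJD3, 22.8 and 19.5 kb away.

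VDR, which encodes the vitamin D receptor, had a shared GBR in an intron at 26.5 kb (chr12:47878256-47878808). Its −log10 p-value was 41.2 in siHic5/siNS (rank 2131), 18.0 in siNS/siNS (rank 1605), 36.9 in siBRM/siHic5 (rank 1478) and 12.6 in siBRM/siNS (rank 1110). It was absent from both lists of cells depleted of CHD9.

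RARB, for retinoic acid receptor β, had 3 blocked GBR between 31.7 and 41.0 kb downstream of the TSS, with −log10 p-values of 14.3 to 28.9. Only the strongest, which holds the GRE match printed above, was called in a second list, siBRM/siHic5. THRB, for thyroid hormone receptor β, had 1 blocked GBR at −12.8 kb with a −log10 p-value of 18.7, called in no other list.

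**Figure D2:**
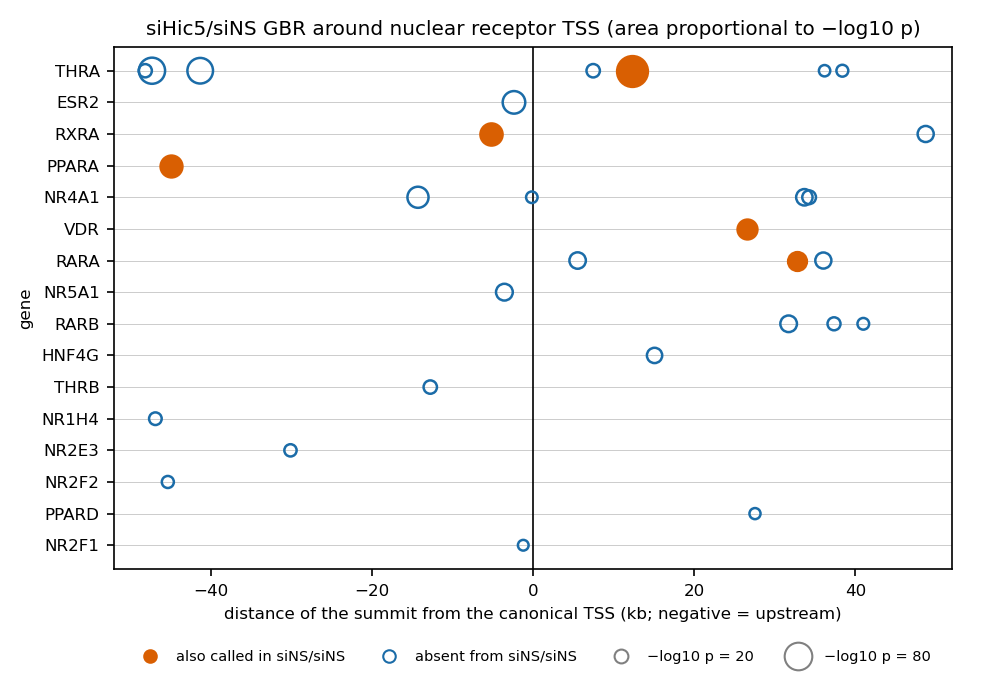
Position of the 30 siHic5/siNS GBR, in kb from the canonical TSS (negative is upstream), for the 16 nuclear receptor genes that have a GBR. Circle area is proportional to the −log10 p-value, filled circles are also called in siNS/siNS and open circles are absent from it. THRA has 7 circles spread over both sides, and the 5 filled circles belong to THRA, RXRA, PPARA, VDR and RARA.

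The sensors of lipids, sterols, bile acids and foreign compounds had 4 of the 30 GBR. Of these 12 genes, 4 had a GBR in siHic5/siNS, with 1 each, beside a background of 27.1% of all protein-coding genes. PPARG, RORA, RORB, NR1H2, NR1H3, NR1I2, NR1I3 and HNF4A had none within 50 kb in any list.

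PPARA, which encodes a fatty acid-activated receptor that is central to fatty acid oxidation in liver, had the one GBR that was called in every combination. It lay at −44.9 kb in an exon of the non-coding gene MIRLET7BHG (chr22:46105379-46105972). The −log10 p-value was 50 in siHic5/siNS (rank 1623), 43.3 in siNS/siNS (rank 446), 66.0 in siBRM/siHic5 (rank 681), 15.0 in siCHD9/siHic5 (rank 1786), 28.1 in siBRM/siNS (rank 335) and 11.7 in siCHD9/siNS (rank 1390). It stood in the strongest 17.0% of the siHic5/siNS list and 17.3% of the siNS/siNS list, and at 20.1% and 26.2% of the lists depleted of BRM. In the lists depleted of CHD9 it stood at 72.9% in siCHD9/siHic5 and 98.2% in siCHD9/siNS, near the lower end. Over the 882 siHic5/siNS GBR that were called in all 6 lists, the median place was 5.27% in siHic5/siNS, 18.4% in siNS/siNS, 13.9% in siBRM/siHic5, 36.7% in siBRM/siNS, 20.8% in siCHD9/siHic5 and 34.4% in siCHD9/siNS. The places come from lists of different length, and no test of their order was made.

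The other sensors had blocked GBR of middle or low strength. HNF4G, an orphan receptor of the HNF4 family, had a GBR at 15.1 kb with a −log10 p-value of 24.5 in siHic5/siNS. It was also called in siCHD9/siHic5 (28.1, rank 830), siBRM/siHic5 (30.2, rank 1889) and siCHD9/siNS (11.8, rank 1351 of 1415). It was thus called after depletion of CHD9 with Hic-5 present while absent from siNS/siNS. The siCHD9/siNS call was near the bottom of that list, whose lowest −log10 p-value was 11.6. Over all merged regions 98 of 9736 (1.01%) had this pattern of calls. The HNF4G GBR was singled out after its values were seen. The GBR of NR1H4, the bile acid receptor, and of PPARD were called in siHic5/siNS only, with −log10 p-values of 16.7 and 12.9.

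RXRB and RXRG had no GBR in any list, where 27.6% of all protein-coding genes had one. RXRA, which encodes the retinoid X receptor α, had 2 GBR. The GBR at −5.25 kb (chr9:134320951-134321434) lay in an intron of RXRA transcripts with an upstream start. Its −log10 p-value was 51.3 in siHic5/siNS (rank 1562), 13.3 in siNS/siNS (rank 2429 of 2582) and 38.1 in siBRM/siHic5 (rank 1397), and it was absent from the other 3 lists. It was therefore a shared GBR, but one near the bottom of the siNS/siNS list. The GBR at 48.7 kb was blocked, with 27.1 in siHic5/siNS and 26.4 in siBRM/siHic5 (rank 2164).

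Of the 7 genes of the testicular receptor, TLX, PNR and COUP-TF group, NR2C1, NR2C2, NR2E1 and NR2F6 had no GBR in any list. The background was 27.6% of all protein-coding genes with one. NR2E3, NR2F1 and NR2F2 had 1 GBR each in siHic5/siNS. These 3 GBR were blocked and weak, with −log10 p-values of 12.0 to 15.8. The weakest, at −1.23 kb of NR2F1 (COUP-TFI, rank 9395 of 9533), was also called in siBRM/siNS (13.5, rank 994 of 1278) and in no other list. Over all merged regions 4 of 9736 had that pattern. The NR2F1 GBR was singled out after its values were seen.

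NR4A2 and NR4A3 had no GBR in any list, where 27.6% of all protein-coding genes had one. NR4A1, an immediate early gene that encodes the orphan receptor NUR77, had 4 GBR and none of them was called in siNS/siNS. The strongest was at −14.3 kb in an intron of longer NR4A1 transcripts (chr12:52036610-52037551), with a −log10 p-value of 46.6 (rank 1786), and it was called in siHic5/siNS only. It was the strongest of the 15 GBR with that pattern. The GBR at −0.161 kb (chr12:52051062-52051552) was the only one of the 30 within 1 kb of the canonical TSS of its receptor gene, with a −log10 p-value of 13.9 (rank 8085), and was likewise called in no other list. A pair of GBR at 33.7 and 34.3 kb lay in an intron of SMIM41, with 28.2 and 19.7, and only the second was called elsewhere, in siBRM/siHic5 (18.6, rank 3198 of 3383). No NR4A1 GBR was called in siCHD9/siHic5.

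NR5A1, which encodes steroidogenic factor 1, a regulator of steroid hormone synthesis, had 1 GBR at −3.57 kb (chr9:124510765-124511154). It had a −log10 p-value of 29.4 (rank 3330) in siHic5/siNS and was called in no other list. NR5A2 and NR6A1 had no GBR in any list, where 27.6% of all protein-coding genes had one.

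The 30 GBR were mostly distal. The median distance from the TSS was 32.2 kb, with 14 upstream and 16 downstream. Within 25 kb lay 11 of the 30 (36.7%), against 50.7% of the 8807 pairs of a protein-coding gene and a siHic5/siNS GBR within 50 kb. Within 1 kb the shares were 3.33% and 5.21%, and within 10 kb they were 23.3% and 22.1%. The summit was in an intron of the receptor gene itself for 15 GBR and was intergenic for 4. For 21 of the 30 the receptor TSS was the nearest protein-coding TSS. The intron, intergenic and nearest-TSS counts were not made over all siHic5/siNS GBR, so they have no background. Of the 42 genes, 5 had 2 or more GBR in siHic5/siNS, and the background for 2 or more was 10.1% of all protein-coding genes.

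The next comparison asked which of the siHic5/siNS GBR near nuclear receptor genes were called in cells containing Hic-5. Of the 30, 25 were blocked (83.3%, 95% Wilson interval 66.4 to 92.7%), against 74.0% of all 9533. The 5 shared GBR were those of THRA at 12.3 kb, RARA at 32.7 kb, VDR, PPARA and RXRA at −5.25 kb. In the opposite direction, 0 of the 5 siNS/siNS GBR was absent from siHic5/siNS (Wilson interval up to 43.4%), and the value over all siNS/siNS GBR was 3.18%.

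The calls were next followed after depletion of a remodeler together with Hic-5. Of the 30 GBR, 24 (80%, 62.7 to 90.5%) were absent from siCHD9/siHic5, against 75.4% of all siHic5/siNS GBR. From siBRM/siHic5, 17 (56.7%, 39.2 to 72.6%) were absent, against 65.4%. This share depended on the threshold: with a −log10 q-value of at least 14.2 in every list, 8 of 21 (38.1%) were absent, against 50.5% of all, and with at least 20, 6 of 16 (37.5%), against 48.4%. Among the 1000 strongest GBR of each list it was 1 of 3 (33.3%), against 22.3%. From both lists 16 (53.3%, 36.1 to 69.8%) were absent, against 61.8%. With all deposited GBR used, each interval included the value over all GBR. The lowest −log10 q-value of the siBRM/siHic5 list was the highest of the 6. That list held 13 GBR near these genes of 3383 in all, and the siCHD9/siHic5 list held 6 of 2451.

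Among the 25 blocked GBR, 21 (84.0%, 65.3 to 93.6%) were absent from siCHD9/siHic5 and 17 (68.0%, 48.4 to 82.8%) from siBRM/siHic5, against 90.6% and 83.3% of all blocked GBR. The upper bound for siBRM/siHic5 lay just under the value over all blocked GBR. The 8 blocked GBR still called there were those of ESR2, HNF4G, NR4A1 at 34.3 kb, RARA at 5.52 kb, RARB at 31.7 kb, RXRA at 48.7 kb and THRA at −47.3 and −41.3 kb. Among the 5 shared GBR, 3 were absent from siCHD9/siHic5 (60.0%, 23.1 to 88.2%) and 0 from siBRM/siHic5, against 32.3% and 14.3% of all shared GBR. The 3 were those of VDR, RARA at 32.7 kb and RXRA at −5.25 kb.

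With Hic-5 present, the 5 siNS/siNS GBR could be followed into the lists depleted of CHD9 or BRM alone. From siCHD9/siNS, 4 of 5 (80%, 37.6 to 96.4%) were absent, against 51.4% of all siNS/siNS GBR, and PPARA was the one that stayed. From siBRM/siNS, 2 of 5 (40.0%, 11.8 to 76.9%) were absent, against 52.2%, and these were RXRA at −5.25 kb and RARA at 32.7 kb, the 2 of the 5 with the lowest −log10 p-values in siNS/siNS.

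**Figure D3:**
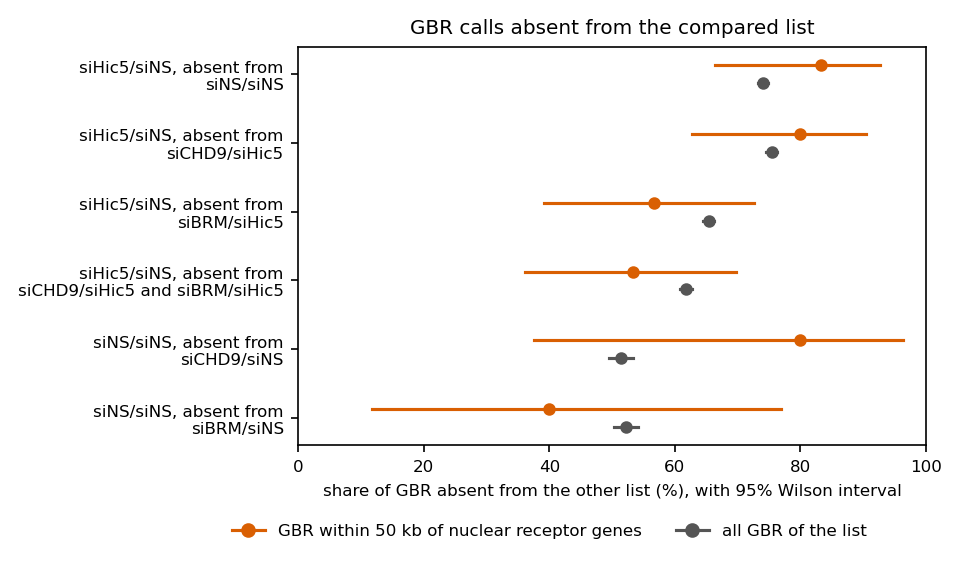
Share of GBR of the first list named that had no overlapping GBR in the second, in percent, for GBR within 50 kb of nuclear receptor genes (orange) and for all GBR of the list (gray), with 95% Wilson intervals. All 6 orange intervals overlap the gray points, for example 83.3% against 74.0% in the first row.

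The plot of absent shares sets the 30 and the 5 GBR beside their lists. Its wide intervals follow from the small number of GBR. They cover counting error only, and GBR near the same gene, such as the 7 of THRA, are not independent.

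Whether a GBR was also called in another list went with its strength. In the strongest group of the siHic5/siNS list, when all 9533 GBR were divided by rank into 3 equal groups, 4 of the 9 GBR near nuclear receptor genes were absent from siNS/siNS (44.4%, against 37.3% of all GBR of that group). In the middle group 12 of 12 were absent, against 87.7%, and in the weakest group 9 of 9, against 97.1%. From siBRM/siHic5, 1 of 9 was absent in the strongest group (11.1%, against 21.2%), 7 of 12 in the middle group (58.3%, against 79.4%) and 9 of 9 in the weakest (against 95.5%). The 1 exception in the strongest group was NR4A1 at −14.3 kb. From siCHD9/siHic5 the counts were 5 of 9 (against 39.8%), 10 of 12 (against 89.4%) and 9 of 9 (against 97.1%).

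The GBR near nuclear receptor genes were of ordinary strength for their list. Their −log10 p-values in siHic5/siNS ran from 12.0 at NR2F1 to 99.3 at THRA, with a median of 25.8 (quartiles 16 and 40.1). Over all siHic5/siNS GBR the median was 22.4 (quartiles 15.8 and 38.0, highest 317). Of the 30, 9 were in the strongest of 3 equal groups, and the pair with the highest values were both THRA GBR, at 12.3 and −47.3 kb. The median width was 556 bp, against 506 bp.

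**Figure D4:**
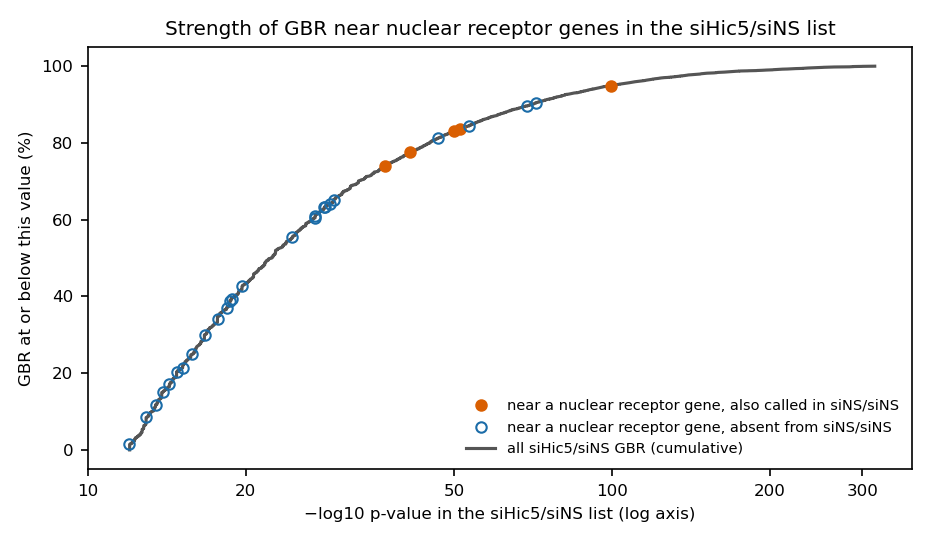
Cumulative share of siHic5/siNS GBR at or below a given −log10 p-value (gray line, log axis), with the 30 GBR near nuclear receptor genes placed on it. Filled circles are also called in siNS/siNS and open circles are absent from it. The 5 filled circles lie at −log10 p-values of 36.9 to 99.3, and the lower part of the line carries open circles only.

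The plot of strength shows that the 5 shared GBR sat in the upper part of the list, at ranks 482 to 2482 of 9533. Open circles were found over the whole range, up to 71.5 at THRA.

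Finally, the letters under the summits were compared with those of all siHic5/siNS GBR. A GRE match of at most 1 mismatch was present in the 1-kb window of 5 of 30 GBR (16.7%, 7.34 to 33.6%), against 23.8% of all siHic5/siNS GBR. In windows 5 kb to either side the shares were 8.33% (5 of 60) and 4.06%. With 2 mismatches allowed and the window narrowed to 200 bp, 16 of 30 (53.3%, 36.1 to 69.8%) held a match, against 56.0% of all, and the side windows held one in 5.00% and 9.61%. Of the 5 shared GBR, 1 held a match of at most 1 mismatch, that of VDR, and of the 25 blocked GBR, 4 did.

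Matches to AP-1, the Fos and Jun family, and to ETS factors were common in the windows and in their surroundings. The AP-1 pattern TGANTCA was found in 14 of 30 windows of 1 kb (46.7%, 30.2 to 63.9%), against 48.2% of all GBR, with 35.0% and 27.9% in the side windows. The ETS patterns CAGGAAG or CCGGAAG were found in 16 of 30 (53.3%, 36.1 to 69.8%), against 41.5% of all, with 38.3% and 31.8% in the side windows. Both strands were searched, and matches to different patterns may share bases. At the THRA GBR at −41.3 kb, the AP-1 letters lie in the flank of the sequence printed above, −26 bp from the summit. Of the 30 GBR, 5 held none of the 3 kinds of match in 1 kb, and PPARA, the GBR called in all 6 lists, was among them. The share of all siHic5/siNS GBR without any of these matches was not counted, so this number has no background. The base composition of the 1-kb windows ranged from 37.1% G and C at RARB to 72.9% at NR4A1.

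A list of 23 related genes, made up of the remaining nuclear receptor genes, GR chaperones and ligand enzymes, and coregulators of nuclear receptors, was counted in the same way. In siHic5/siNS, 8 of the 23 genes had 15 GBR, of which 11 were blocked, beside 27.1% of all protein-coding genes with a GBR and 74.0% of all GBR blocked. In siNS/siNS 3 of the 23 genes had 4 GBR, beside 9.46% of all genes. The siHic5/siNS and siNS/siNS counts are near their backgrounds. In siCHD9/siHic5, 5 of the 23 genes had 5 GBR, beside 8.99% of all genes with one. In siBRM/siHic5, 5 of the 23 had 7, beside 12.4%. In siCHD9/siNS 1 gene had 1, beside 5.75%, and in siBRM/siNS 2 genes had 2, beside 5.23%. Of the 6 remaining receptor genes, 3 had GBR in siHic5/siNS, and the GBR at NR1D1 are in part those already counted for THRA. Of the 11 coregulator genes, 3 had GBR in siHic5/siNS.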

How the data were processed

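GR ChIP-seq was made in U2OS-GRα cells, with 12 ChIP and 6 input libraries. According to the study's methods and the submitters' processing notes, reads were mapped to GRCh38/hg38 with BWA, duplicates were removed, and peaks were called with MACS2 and the IDR framework. Both replicates were pooled. Tool versions and the IDR threshold are not given in the sources used here. Each of the 6 deposited lists holds the summit of every peak, a score, a signal value and, as the authors obtained them from the caller, −log10 p and q-values. The deposited signal value, whose scale was not settled (fold enrichment or CPM), and the score were not used. The −log10 p-value ranked GBR within a list, and the −log10 q-value set the thresholds of the alternatives. Sequencing depth of each sample cannot be recovered from the lists. The DiffBind sets and the ATAC-seq data were not analysed here.

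Summits were assigned to the Ensembl canonical TSS of protein-coding genes in GENCODE release 44, within 50 kb. Peaks of different lists were matched by an overlap of at least 1 bp. Shares have 95% Wilson intervals, and no p-value was computed, since each condition is 1 list. Motifs were searched on both strands in 1 kb and 200 bp around the summit and 5 kb to either side, and GRE matches are printed with flanks of 20 bases or fewer. The code for assignment, overlaps and motifs was tested on simulated data. The alternatives were other distances, TSS, overlap rules, peak thresholds, windows and mismatches.

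Values are given for NR3C1, for genes with a siNS/siNS GBR, for genes with any of the 10 strongest siHic5/siNS GBR, for genes with a GBR absent from siHic5/siNS, and for genes with a GBR within 1 kb of the TSS. Related genes are given by counts, and 1 result for a named related gene is not reported here. Values of other genes were chosen after they were seen, and the shares over all GBR at stricter thresholds and the places of GBR called in all 6 lists were added then too. The genes and lists were chosen with earlier results of these data known. Python 3.11.15, NumPy 2.4.6, pandas 2.3.3, SciPy 1.17.1, pysam 0.24.0 and Matplotlib 3.10.9 were used.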

Additional observations from a re-analysis of the deposited data

How the results depend on the processing

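Of 139 alternative values, 65 stayed close to the value reported (counts within 1.5 times, shares within their interval) and 74 moved. Other overlap rules moved none. Counts below are in the order siNS/siNS, siHic5/siNS, siCHD9/siHic5, siBRM/siHic5, siCHD9/siNS and siBRM/siNS. GBR near nuclear receptor genes were 5, 30, 6, 13, 2 and 4. Within 10 kb they were 1, 7, 0, 3, 0 and 1, within 100 kb 11, 47, 12, 19, 7 and 7, and by any annotated TSS 10, 43, 10, 18, 5 and 6. With a common −log10 q-value of at least 14.2 they were 2, 21, 2, 13, 0 and 1, with at least 20 they were 1, 16, 1, 10, 0 and 1, and among the 1000 strongest GBR of each list 1, 3, 1, 3, 0 and 3. Counting a GBR only for the gene of its nearest TSS left 3 in siCHD9/siHic5. Genes with a GBR were 5, 16, 4, 9, 2 and 4. In the same order of settings they were 1, 7, 0, 3, 0 and 1 within 10 kb, 8, 21, 8, 10, 5 and 5 within 100 kb, 9, 20, 8, 12, 5 and 6 by any TSS, 2, 11, 2, 9, 0 and 1 at the common threshold, 1, 10, 1, 7, 0 and 1 at 20, and 1, 1, 1, 2, 0 and 3 among the strongest 1000. Shorter distances and stricter thresholds leave fewer peaks by construction.

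The thresholds and the limit of 1000 were applied to both lists compared. A GBR called below the cut in the second list therefore counted as absent. The share of blocked GBR in siHic5/siNS (83.3%, against 74.0% of all) was 76.6% within 100 kb (36 of 47). By any TSS it was 76.7% (33 of 43). At −log10 q-value 20 it became 93.8% (15 of 16), against 76.6% of all. Among the strongest 1000 it became 100% (3 of 3), against 28.9%, although THRA at 12.3 kb was called at rank 1216 of siNS/siNS. The share absent from siCHD9/siHic5 (80%, against 75.4% of all) was 74.5% within 100 kb (35 of 47). By any TSS it was 76.7% (33 of 43). Within 10 kb it became 100% (7 of 7), a setting for which no share over all GBR was counted. At 20 it became 93.8% (15 of 16), against 78.2% of all. In the strongest 1000 it became 100% (3 of 3), against 29.8%. The share absent from siBRM/siHic5 (56.7%) was 59.6% within 100 kb (28 of 47). It became 38.1% at the common threshold, 37.5% at 20 and 33.3% among the strongest 1000. Of siNS/siNS GBR, the share absent from siCHD9/siNS (80%, against 51.4% of all) was 45.5% within 100 kb (5 of 11). By any TSS it was 60.0% (6 of 10). Within 10 kb it became 100% (1 of 1). It was also 100% at the common threshold (2 of 2, against 57.8% of all) and at 20 (1 of 1, against 56.4%). Among the strongest 1000 it was 100% as well (1 of 1, against 26.6%). The share absent from siBRM/siNS (40.0%) was 45.5% within 100 kb (5 of 11) and became 100% within 10 kb (1 of 1). It became 0% at 20 (0 of 1, against 60.9% of all) and among the strongest 1000 (0 of 1, against 18.0%). The common threshold of 14.2 is the lowest −log10 q-value of siBRM/siHic5 itself. It removed no GBR from that list and left 6387 of the 9533 in siHic5/siNS. Beyond the smaller numbers and these cuts, the cause of the shifts was not tested. A GRE match in 1 kb (16.7%) became 0% with 0 mismatches, against 3.58% of all siHic5/siNS GBR. With 2 mismatches it became 63.3%, against 72.6%. AP-1 (46.7%) and ETS (53.3%) became 26.7% and 16.7% in 200 bp, as a shorter window holds fewer matches. Over all siHic5/siNS GBR these shares were 48.2% and 41.5% in 1 kb and 24.7% and 15.2% in 200 bp.

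No paired analysis was possible because the deposited lists pool both replicates. Leaving out a replicate was not possible either. The depth that limits the calling of weak GBR is not in the lists.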

Other observations

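Long receptor genes also held GBR inside the gene but more than 50 kb from the canonical TSS. In siHic5/siNS there were 15 of these, all in introns, in ESR1, ESRRG, RARB, RORA, RXRA and THRB, and 3 of these 6 genes (ESR1, ESRRG and RORA) had no GBR within 50 kb. Of the 15, 9 were absent from siNS/siNS, where 74.0% of all siHic5/siNS GBR were absent, and 8 were called in siHic5/siNS only, as were 57.5% of all merged regions. A GBR called in all 6 lists was found in ESR1, the gene of estrogen receptor α, 139 kb upstream of the canonical TSS (chr6:151668873-151669395, rank 2862). The annotated ESR1 gene starts at position 151656691, within 50 kb of that GBR. The lack of a GBR within 50 kb at ESR1 therefore rests on the canonical TSS. GBR called in all 6 lists were also found in RORA, an orphan receptor gene, 179 kb downstream of its canonical TSS (chr15:61050022-61050453, rank 1911). Another was in THRB 349 kb downstream (chr3:24145944-24146597, rank 2607).

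The strongest of the 15 was in RARB at 80.8 kb (chr3:25508394-25509443), with a −log10 p-value of 79.9 and rank 741, and it was called in every list but siBRM/siNS. Absence from siCHD9/siHic5 and absence from siBRM/siHic5 each concerned 9 of the 15, where the shares over all siHic5/siNS GBR were 75.4% and 65.4%. These intragenic GBR were counted after the distance of 50 kb had been set, and they enter none of the counts of the report.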
